A study of Mus musculus with 11 samples.

Results

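The genes described here are 10 protein-coding genes of the piRNA pathway and the germ granules, chosen by name from a set of 24411 genes counted in mouse testis RNA: Piwil1, Piwil2, Tdrd1, Tdrd5, Tdrd6, Tdrd7, Tdrd9, Ddx4, Mael and Mov10l1. All 10 were counted in every sample and all 10 passed the filter on low counts in each comparison. The study asked how the loss of an iron regulatory protein alters gene expression in the testis. Polyadenylated RNA from whole decapsulated testes of 20-week-old mice was sequenced in 4 WT (C57Bl/6J) samples, 4 samples with a global knockout of Aco1, the gene of iron regulatory protein 1 (Irp1-/-), and 3 with a global knockout of Ireb2, the gene of iron regulatory protein 2 (Irp2-/-). No mouse was treated, and a global knockout is not limited to germ cells or to somatic cells. Per the study's methods, the Irp1-/- mice carried the Aco1 tm1Roua allele on C57Bl/6J, and their WT controls came from the same crosses of heterozygotes, whereas the allele and breeding of the Irp2-/- mice were not given in the sources used here.

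PIWI-interacting RNAs (piRNAs) are short germline RNAs that guide PIWI proteins to complementary transcripts, above all those of transposons. In adult testis most of them are pachytene piRNAs, cut in spermatocytes from long single-stranded precursors whose transcription is driven by A-MYB (Mybl1). The machinery sits in cytoplasmic granules without a membrane: the intermitochondrial cement of spermatocytes and the chromatoid body of round spermatids, where Tudor proteins bind methylated arginines of the PIWI proteins and hold the granule together. Male mice that lack any one of several of these genes are sterile.

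Total counts lay between 15902473 and 22451417 per sample (WT 16358055 to 18257228, Irp1-/- 15902473 to 22451417, Irp2-/- 18519415 to 22349732). Ireb2 was lower in Irp2-/- testes (61.3 to 64.4 CPM, the count scaled to the total count of its sample) than in WT testes (132 to 142 CPM; log2 fold change -1.16, adjusted p = 2.8e-13, edgeR), and Aco1 was lower in Irp1-/- testes (7.98 to 9.19 CPM) than in WT testes (9.59 to 12.9 CPM; log2 fold change -0.45, adjusted p = 0.016, edgeR), with transcripts of both genes still counted. Defining genes of testicular cells were present in every sample, such as Sycp1 of spermatocytes at 214 to 247 CPM, whereas 6 epididymal genes reached at most 0.252 CPM and 2 of these, Lcn5 and Spink12, were at 0 throughout. In bulk testis RNA, fewer cells of a type and less RNA per cell cannot be told apart.

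The 10 genes are spread over the genome (mm10, GENCODE M21). Tdrd5 (chr1:156255296-156303664, minus strand) and Mael (chr1:166201201-166238747, minus strand) share chromosome 1. Tdrd7 (chr4:45965334-46034761, plus strand) lies 5.77 Mb from Aco1, the gene disrupted in Irp1-/- mice. The others are Piwil1 (chr5:128702524-128755474, plus), Tdrd9 (chr12:111971559-112068854, plus), Ddx4 (chr13:112598333-112652475, minus), Piwil2 (chr14:70372477-70429383, minus), Mov10l1 (chr15:88982909-89055152, plus), Tdrd6 (chr17:43615335-43630299, minus) and Tdrd1 (chr19:56826209-56870012, plus). Only Tdrd5 shared exon bases with another annotated gene, 176 bases with 4930518J20Rik on the opposite strand. The sequencing kit kept the strand, but whether the counting used it was not given in the sources used here.

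Because A-MYB is a transcription factor of this pathway in spermatocytes, RefSeq promoter windows (GRCm38.p6) were searched for TAACNG, the core of the MYB site, on both strands (CNGTTA on the other), in the 250 bases before each annotated start. Windows of 7 of the 10 genes are used (9 windows, without Piwil2, Tdrd6 and Tdrd7), and 3 genes, Mov10l1, Piwil1 and Tdrd5, had the core in 1 window each, that is in 3 of 9 windows, against 19.8% of 32851 windows of all genes. The related core CAACNG was in 2 of the 9 windows, those of Tdrd5 and Piwil1, against 29.3% of all windows. Both also held TAACNG, so either core was in the same 3 of 9 windows, against 43.1% of all windows. A match in letters is a description and not a bound site. The matched stretches are shown 5′ to 3′ on the strand of the gene, with the match in capitals; that of Mov10l1 (chr15:88982744-88982843, plus) holds 2 matches and lies before the gene, and the others are 30 bases long, of which that of Tdrd5 and the second of Piwil1 overlap an annotated exon, from Tdrd5 (chr1:156303479-156303508, minus) and Piwil1 (chr5:128736095-128736124 and chr5:128736170-128736199, plus).
Mov10l1: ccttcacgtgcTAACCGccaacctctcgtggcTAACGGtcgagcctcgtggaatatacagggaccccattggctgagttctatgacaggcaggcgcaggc
Tdrd5: ctaggtctccgcTAACCGtcacaccggccg
Piwil1, first match: gtgtccacctcgCCGTTAacccagaggtct
Piwil1, second match: tggcagttggggCTGTTAgcaggtgccgca

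The genes were transcribed at very unequal levels in the WT testis. Per length of exon sequence, as CPM per kilobase of exon (RPKM), Mael stood highest at 707 ± 6.05 RPKM (SD, n = 4), followed by Ddx4 at 203 ± 1.29, Tdrd6 at 139 ± 2.17 and Piwil1 at 122 ± 5.55 RPKM. Mael encodes a germ granule protein needed for transposon silencing, and Ddx4 the vasa RNA helicase by which germ cells are commonly recognised. Tdrd7 came next at 78.0 ± 1.59 RPKM, then Piwil2 at 36.5 ± 0.342, Tdrd1 at 35.6 ± 0.719, Tdrd9 at 30.9 ± 0.728 and Tdrd5 at 28.0 RPKM (25.9 to 29.4). Mov10l1, whose helicase feeds precursors to the nuclease that cuts them, was lowest at 21.8 ± 0.418 RPKM, 32.4 times below Mael. Neighbours in this order were separated in all WT samples except Piwil2 and Tdrd1, whose ranges overlapped (36.1 to 36.8 against 34.7 to 36.2 RPKM), and with the longest transcript as the length Tdrd1 came first of that pair, at 37.4 against 36.5 RPKM. The order was the same in Irp1-/- and Irp2-/- testes.

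**Figure D1:**
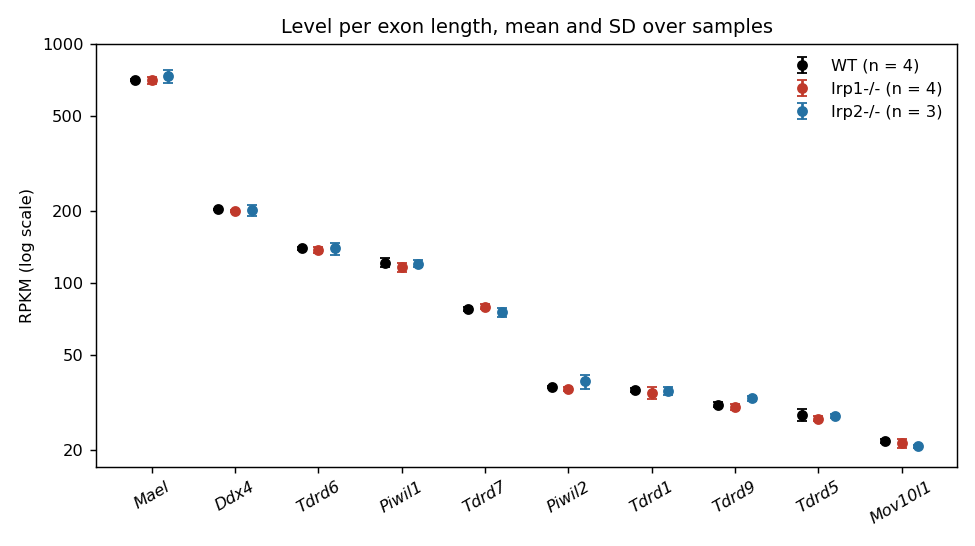
Level per exon length (RPKM, log scale) of the 10 genes, ordered by the WT mean. Points are means and bars SDs over the samples of each genotype (WT n = 4, Irp1-/- n = 4, Irp2-/- n = 3); Mael at 707 RPKM and Mov10l1 at 21.8 RPKM mark the ends in WT, and the 3 genotypes lie close together for every gene.

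The spread between samples was small. Within a genotype the SD on the log2 scale ran from 0.030 for Tdrd9 to 0.061 for Tdrd1, against a median of 0.117 over the 16406 genes tested across all samples. Tdrd9 was at percentile 0.677 of that distribution and Tdrd1 at percentile 14.9. These percentiles were not matched for expression level, and count noise alone spreads the log2 values of scarce genes more. At this spread the 95% intervals of the fold changes below reached no further than 0.867 to 1.14 in any comparison.

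For the loss of IRP1, none of the 10 genes passed an adjusted p of 0.05 in Irp1-/- against WT testes (edgeR, Benjamini-Hochberg over 16002 genes), where 1.02% of all tested genes did (164), and none had an unadjusted p under 0.05, against 12.1% of all genes. The log2 fold changes lay between -0.08 (Piwil1) and 0.01 (Tdrd7), with a median of -0.05 against -0.00079 over all tested genes. Of the 10, 9 were below 0, against 50.3% of all tested genes. The 95% intervals spanned folds of 0.896 to 1.06 over the 10 genes. For the loss of IRP2, again none passed in Irp2-/- against WT testes, where 1.21% of 16154 genes did (196), and none had an unadjusted p under 0.05 (9.42% of all genes). Their log2 fold changes lay between -0.10 (Mov10l1) and 0.06 (Tdrd9), with a median of -0.03 against 0.0033 over all genes, 7 of 10 below 0 against 48.7%, and intervals spanning folds of 0.873 to 1.12. In Irp1-/- against Irp2-/- testes 4.69% of 16281 genes passed (763) and none of the 10 did. Their log2 fold changes lay between -0.11 (Tdrd9) and 0.09 (Tdrd7), with a median of -0.03 against -0.0019 over all genes, 8 of 10 below 0 against 50.6%, and 1 gene, Tdrd9, had an unadjusted p under 0.05, against 16.3% of all genes. DESeq2 likewise called none of the 10 in any of the 3 comparisons, with 1, 0 and 2 of them at an unadjusted p under 0.05. The 3 comparisons share samples in pairs, so their values are not independent of each other.

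**Figure D2:**
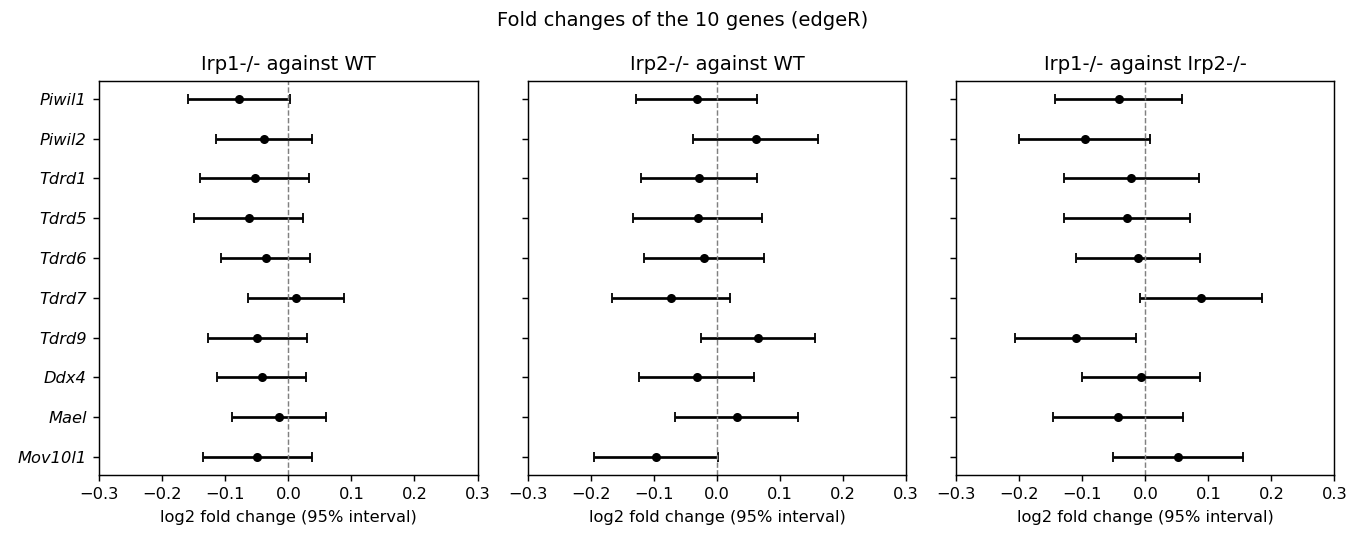
Log2 fold changes (points) with 95% intervals (bars) of the 10 genes in the 3 comparisons, from edgeR; the dashed line marks no difference. All intervals except that of Tdrd9 in Irp1-/- against Irp2-/- testes (-0.21 to -0.01) cross 0, and in Irp1-/- against WT testes 9 of 10 points lie left of it.

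The PIWI proteins themselves come first. Piwil1 encodes MIWI, which carries pachytene piRNAs in late spermatocytes and round spermatids. It stood at 469, 504, 508 and 522 CPM in the WT samples, at 501, 490, 467 and 455 CPM in the Irp1-/- samples and at 517, 490 and 482 CPM in the Irp2-/- samples. The genotypes overlapped, with Irp1-/- replicate 7 the lowest of all 11 samples and WT replicate 4 the highest. The fold change in Irp1-/- against WT testes was 0.947 (95% interval 0.896 to 1.00; log2 -0.08, SE 0.039, adjusted p = 0.43, edgeR), the smallest adjusted p among the 10 genes in that comparison. In Irp2-/- against WT testes it was 0.978 (0.915 to 1.04; adjusted p = 0.92, edgeR).

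Piwil2 encodes MILI, the PIWI protein present from the fetal gonocyte to the round spermatid. WT samples had 179, 178, 181 and 181 CPM, Irp1-/- samples 181, 176, 172 and 177 CPM, and Irp2-/- samples 203, 176 and 191 CPM. The Irp2-/- samples thus held both a value below every WT sample and the highest value of all 11, in replicate 1. The fold change was 0.974 in Irp1-/- against WT (0.923 to 1.03; adjusted p = 0.74, edgeR), 1.04 in Irp2-/- against WT (0.974 to 1.12; adjusted p = 0.79) and 0.935 in Irp1-/- against Irp2-/- testes (0.870 to 1.01; adjusted p = 0.36).

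The Tudor proteins read the methylated arginines of PIWI proteins. Tdrd1, a component of the intermitochondrial cement that binds MILI, had 194 ± 3.91 CPM in WT (SD, n = 4), 188 ± 11.2 in Irp1-/- (n = 4) and 193 ± 7.24 in Irp2-/- testes (n = 3), and Irp1-/- replicate 7 was lowest at 173 CPM. Tdrd5, which binds the precursors of pachytene piRNAs, had 105 ± 5.65, 102 ± 2.43 and 104 ± 2.18 CPM. Tdrd6, a scaffold of the chromatoid body, had 984 ± 15.3, 969 ± 25.5 and 984 ± 56.6 CPM, with 919 CPM in Irp2-/- replicate 1 against 1017 and 1016 CPM in the other two. These 3 genes overlapped between all genotypes, and their log2 fold changes against WT lay between -0.06 and -0.02.

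Tdrd7, a chromatoid body protein with roles in transposon silencing, was the only member above 0 in Irp1-/- against WT testes. WT samples had 305, 303, 305 and 292 CPM, Irp1-/- samples 308, 308, 314 and 296 CPM, and Irp2-/- samples 277, 295 and 300 CPM. Every group overlapped with the others. The log2 fold change was 0.01 in Irp1-/- against WT (95% interval -0.06 to 0.09; adjusted p = 0.94, edgeR), -0.07 in Irp2-/- against WT (-0.17 to 0.02; adjusted p = 0.71) and 0.09 in Irp1-/- against Irp2-/- testes (-0.01 to 0.18; adjusted p = 0.37). Of the 91 tested genes between Aco1 and Tdrd7, 3 (Gm20878, Gm21586 and Fam205a2) passed in Irp1-/- against WT testes. Of the 10 tested genes on each side of Tdrd7, 2 did (Xpa and Tbc1d2). Over all tested genes 1.02% passed in that comparison. The neighbours were looked up after their values were known, and the cause of their calls was not tested.

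Tdrd9, a helicase with a Tudor domain that works with the nuclear PIWI protein in transposon silencing of the fetal germline, separated 2 of the genotypes. WT samples had 147, 145, 151 and 152 CPM, Irp1-/- samples 144, 146, 149 and 140 CPM, and Irp2-/- samples 155, 156 and 161 CPM. All 3 Irp2-/- samples lay above all samples of both other genotypes. Groups failed to overlap for 9.76% of all genes in Irp2-/- against WT testes and for 15.1% in Irp1-/- against Irp2-/- testes, and for 2 of the 10 (Tdrd9 higher, Mov10l1 lower) and 1 of the 10 (Tdrd9 lower), respectively. The same genes failed to overlap after TMM scaling, against 9.23% and 15.2% of all genes. The fold change was 1.05 in Irp2-/- against WT (0.982 to 1.11; adjusted p = 0.74, edgeR) and 0.926 in Irp1-/- against Irp2-/- testes (0.867 to 0.990; log2 -0.11, SE 0.046, adjusted p = 0.22), so neither passed. In Irp1-/- against WT testes it was 0.966 (0.915 to 1.02; adjusted p = 0.66).

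Among the other helicases, Ddx4 had 615, 610, 617 and 609 CPM in WT, 599, 600, 609 and 594 CPM in Irp1-/- and 575, 611 and 637 CPM in Irp2-/- samples. All Irp1-/- samples but replicate 6 lay below the WT range, and replicate 6, at 608.92 CPM, lay just above the lowest WT sample at 608.90 CPM, while the Irp2-/- samples spread over a wider range than either. The fold change in Irp1-/- against WT testes was 0.971 (0.925 to 1.02; adjusted p = 0.68, edgeR). In CPM of the total count no member failed to overlap in that comparison, where 6.18% of all genes did; after TMM scaling 2 did, Piwil2 and Ddx4, both lower in Irp1-/-, against 6.63% of all genes.

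Mov10l1 encodes the helicase that binds piRNA precursors and is needed for all piRNAs of the mouse germline. WT samples had 91.9, 89.0, 88.7 and 91.8 CPM, Irp1-/- samples 92.0, 84.5, 85.4 and 90.9 CPM, and Irp2-/- samples 86.9, 85.2 and 84.7 CPM. All Irp2-/- samples lay below all WT samples, while the Irp1-/- samples covered both ranges. The fold change in Irp2-/- against WT testes was 0.935 (0.873 to 1.00; log2 -0.10, SE 0.048, adjusted p = 0.55, edgeR), the smallest adjusted p among the 10 genes there, and in Irp1-/- against WT testes it was 0.966 (0.910 to 1.03; adjusted p = 0.70).

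Mael, the most abundant of the 10 per length, had 1228, 1235, 1211 and 1228 CPM in WT, 1204, 1217, 1193 and 1283 CPM in Irp1-/- and 1356, 1240 and 1212 CPM in Irp2-/- samples. The WT samples lay closest together, and Irp2-/- replicate 1 was the highest of all 11. The fold change was 0.989 in Irp1-/- against WT (0.940 to 1.04; adjusted p = 0.91, edgeR) and 1.02 in Irp2-/- against WT testes (0.955 to 1.09; adjusted p = 0.93).

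**Figure D3:**
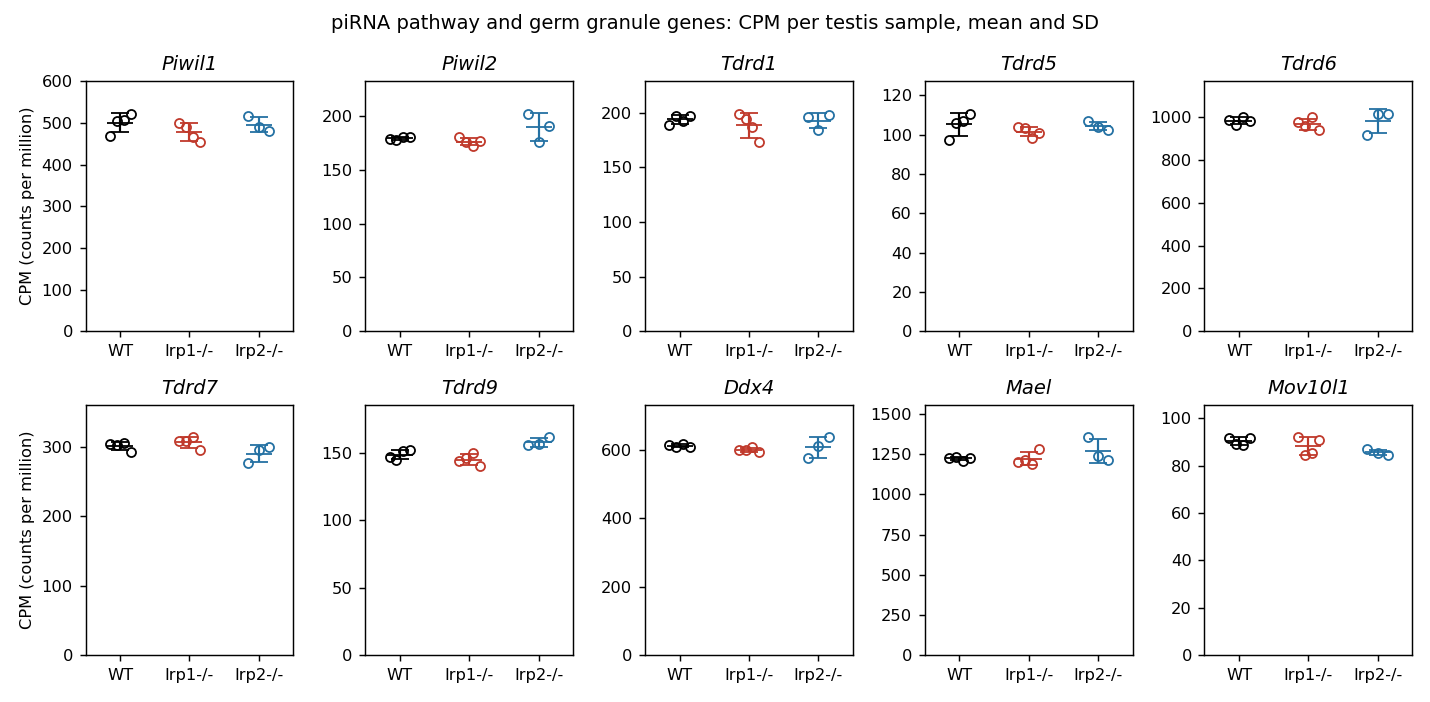
CPM of each gene in every sample (open circles) with the mean and SD of each genotype, each panel starting at 0. In every panel the genotypes lie close together; the Irp2-/- samples of Tdrd9 (155 to 161 CPM) lie above all others and those of Mov10l1 (84.7 to 86.9 CPM) below all WT samples.

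Irp2-/- replicate 1 was highest of the 11 in Piwil2 (203 CPM) and Mael (1356 CPM) and lowest in Tdrd6, Tdrd7 and Ddx4. Irp1-/- replicate 7 was lowest in Piwil1, Tdrd1 and Tdrd9, and Irp1-/- replicate 6 was lowest in Piwil2 and Mael and highest in Tdrd7. In the deposited counts the column of Irp1-/- replicate 6 was marked R and those of all other samples L, with a meaning not stated. Averaged over the 10 genes, the TMM-scaled log2 level relative to the mean of all samples was 0.011 to 0.031 in the 4 WT samples, -0.045 to 0.0023 in the 4 Irp1-/- samples and -0.0091 to 0.0054 in the 3 Irp2-/- samples. With CPM of the total count in place of TMM scaling the ranges overlapped (-0.012 to 0.027, -0.043 to 0.0070 and -0.0034 to 0.022), so the gap between WT and knockout samples in this average depended on the scaling.

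**Figure D4:**
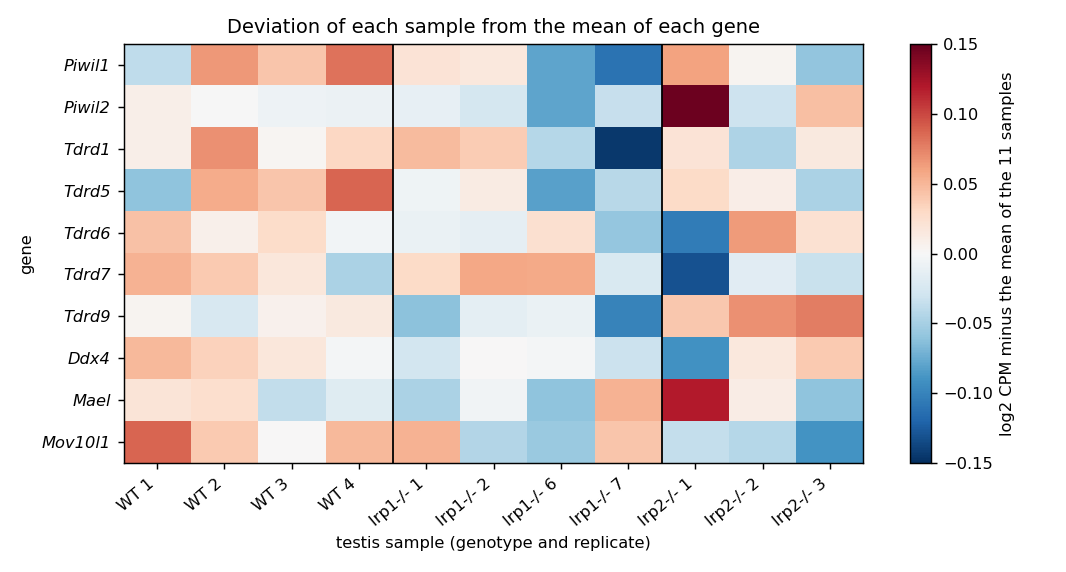
Log2 CPM (TMM-scaled) of each gene in each sample minus the mean of the 11 samples, colours cut at ±0.15; vertical lines separate WT, Irp1-/- and Irp2-/- samples. Red (higher) and blue (lower) cells mix within the genotypes, with the deepest colours in Irp2-/- replicate 1 and Irp1-/- replicate 7.

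Summed over the 10 genes, the CPM was 4342 ± 27.1 in WT (4308 to 4364), 4277 ± 23.3 in Irp1-/- (4251 to 4307) and 4377 ± 16.8 in Irp2-/- testes (4358 to 4391). After TMM scaling the sums were 4374 ± 32.4 (4344 to 4403), 4270 ± 32.9 (4247 to 4317) and 4344 ± 65.4 (4269 to 4393). The Irp1-/- sums lay below all WT sums on both scales, although without TMM scaling the nearest samples were at 4307.4 and 4308.1 CPM, whereas the order of Irp2-/- and WT turned with the scaling. The marker genes of cell types moved as follows in the same comparison. For spermatocytes (10 genes, sum 2288 to 2405 CPM in Irp1-/- against 2343 to 2411 CPM in WT) the median log2 fold change was -0.05 with 8 of 10 below 0 and none passing. For 8 round spermatid genes it was 0.02 (1910 to 2011 against 1902 to 1926 CPM), for 8 elongating spermatid genes -0.06 (21410 to 24443 against 22560 to 23367 CPM) and for 8 spermatogonial genes -0.05 (104 to 116 against 99.2 to 119 CPM). The medians of the spermatocyte, elongating spermatid and spermatogonial lists all lay close to that of the 10 genes. For the other lists the median was as follows. For 8 Sertoli cell genes it was 0.14, all above 0 and Clu passing (1108 to 1270 against 983 to 1089 CPM), where 1.02% of all tested genes passed. For 6 Leydig cell genes it was 0.40, all above 0 and none passing (923 to 1107 against 672 to 970 CPM). For blood genes it was 0.74 (3 of 4 tested, none passing), the value of Hba-a1. Alas2 was at 0.09 and Hbb-bt, at 0 to 4.09 CPM, at 2.78, while Hbb-bs was at 0 in every sample. The blood sums (37.4 to 52.9 against 22.3 to 36.3 CPM) did not overlap, nor did those of the Sertoli cell genes. For 5 peritubular myoid genes it was 0.05 (94.5 to 102 against 85.7 to 104 CPM) and for 5 macrophage genes 0.02 (48.9 to 51.9 against 41.6 to 49.4 CPM), none passing. The part of these shifts in the levels of the 10 genes was not tested.

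The rest of the pathway was followed through 38 other genes, of which 35 were in the count table (Gtsf2, Tdrd10 and Spocd1 were not analysed here) and 34 were tested. Piwil4, the gene of the nuclear PIWI protein of fetal gonocytes, did not pass the filter, with 2 to 10 counts per sample. None of the 34 passed in Irp1-/- against WT or in Irp2-/- against WT testes, with 5 and 3 at an unadjusted p under 0.05, against 12.1% and 9.42% of all genes (DESeq2 called none either, with 3 and 2), and 1, Morc1, passed in Irp1-/- against Irp2-/- testes, where 4.69% of all genes did. In Irp1-/- against WT testes 28 of 34 were below 0, against 50.3% of all genes, with a median of -0.03. In Irp2-/- against WT testes 19 of 34 were below 0 (48.7% of all genes) with a median of -0.0049, and in Irp1-/- against Irp2-/- testes 25 of 34 (50.6%) with a median of -0.04.

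Among 11 tested genes of piRNA making and loading, the highest per length over all 11 samples were Gtsf1l at 353 RPKM, Gtsf1, a zinc finger partner of PIWI slicing, at 169 RPKM and Pld6, the mitochondrial nuclease that cuts precursors, at 49.2 RPKM. Their median log2 fold change was -0.05 in Irp1-/- against WT and -0.02 in Irp2-/- against WT testes. Among 5 other Tudor domain genes, Akap1, a mitochondrial anchoring protein, stood at 248 RPKM, Rnf17 at 40.2 RPKM and Stk31 at 25.6 RPKM, with medians of -0.03 and -0.05. Among 7 other germ granule genes, Ddx25, a helicase needed to complete spermiogenesis, stood at 63.6 RPKM, and Upf1 and Smg6, factors of nonsense-mediated decay, at 32.6 and 27.2 RPKM, with medians of -0.0044 and 0.03. None of the tested genes of these lists passed in any comparison.

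Among 4 transcription factors of the pathway, Mybl1 held the smallest adjusted p of the 34 other genes in Irp1-/- against WT testes. The log2 fold changes of the 4 ran there from -0.30 (Btbd18, adjusted p = 0.39, edgeR) to 0.09, with a median of -0.09 and 3 below 0. In Irp2-/- against WT testes their median was -0.03. Mybl1 (A-MYB) had 86.3, 84.2, 81.3 and 85.5 CPM in WT, 79.6, 78.5, 78.3 and 75.2 CPM in Irp1-/- and 80.6, 85.8 and 84.7 CPM in Irp2-/- samples. All Irp1-/- samples lay below all WT samples. Groups failed to overlap in that comparison for 1 of the 34 other genes, Mybl1, against 6.18% of all genes. The fold change was 0.915 (0.862 to 0.972, log2 -0.13, SE 0.042, adjusted p = 0.17, edgeR), which did not pass. In Irp2-/- against WT testes it was 0.978 (0.911 to 1.05; adjusted p = 0.93). Per length Tcfl5, a partner of A-MYB, stood at 193 RPKM, Mybl1 at 16.4 RPKM and Nfya at 7.79 RPKM.

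Among 7 tested genes of transposon silencing in the nucleus, Trim28, a corepressor, stood at 117 RPKM, Uhrf1, a reader of hemimethylated DNA, at 26.9 RPKM and the histone methyltransferase Setdb1 at 15.8 RPKM, and none of these passed. Morc1, which represses transposons in the male germline, was scarce, with 71 to 156 counts per sample. It stood at 5.31, 5.26, 5.54 and 5.83 CPM in WT, 5.60, 5.83, 4.72 and 4.46 CPM in Irp1-/- and 6.98, 7.83 and 6.59 CPM in Irp2-/- samples. All Irp2-/- samples lay above all others. Groups failed to overlap for 6 of the 34 other genes in Irp2-/- against WT testes, against 9.76% of all genes. In Irp1-/- against Irp2-/- testes they did so for 7 of the 34, against 15.1%. The log2 fold change was -0.45 in Irp1-/- against Irp2-/- testes (SE 0.127, 95% interval -0.72 to -0.19, adjusted p = 0.043, edgeR), 0.36 in Irp2-/- against WT (0.11 to 0.61; adjusted p = 0.20) and -0.10 in Irp1-/- against WT testes (-0.35 to 0.15; adjusted p = 0.82). The call was lost with DESeq2 (adjusted p = 0.11) and when any one of Irp1-/- replicates 1, 6 and 7 or Irp2-/- replicates 1 and 2 was left out (adjusted p 0.073 to 0.24). In the same comparison 7 of 8 spermatogonial marker genes were below 0 with a median of -0.13, and 1 of them, Sall4, passed as lower in Irp1-/- testes, while Gfra1 was at 0.30 (0.09 to 0.51; adjusted p = 0.096, edgeR). Of 8 Sertoli cell genes 3 passed as higher in Irp1-/- testes (Amh, Rhox5 and Fshr, median of the list 0.13). Of 6 Leydig cell genes 2 did (Hsd3b1 and Insl3, median 0.27). Over all tested genes 4.69% passed there in either direction. Amh and Fshr were scarce, at 1.02 to 2.96 and 1.02 to 2.80 CPM over the 11 samples. In Irp2-/- against WT testes the median was 0.10 for 8 spermatogonial genes (2 below 0) and -0.02 for 10 spermatocyte genes (6 below 0). It was -0.06 for 8 round spermatid genes (7 below 0) and -0.09 for 8 elongating spermatid genes (8 below 0). For 8 Sertoli cell genes it was -0.0046 (4 below 0) and for 6 Leydig cell genes 0.22 (2 below 0). None of these passed there. The part of the marker shifts in the values of Morc1, Tdrd9 and Mov10l1 was not tested.

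**Figure D5:**
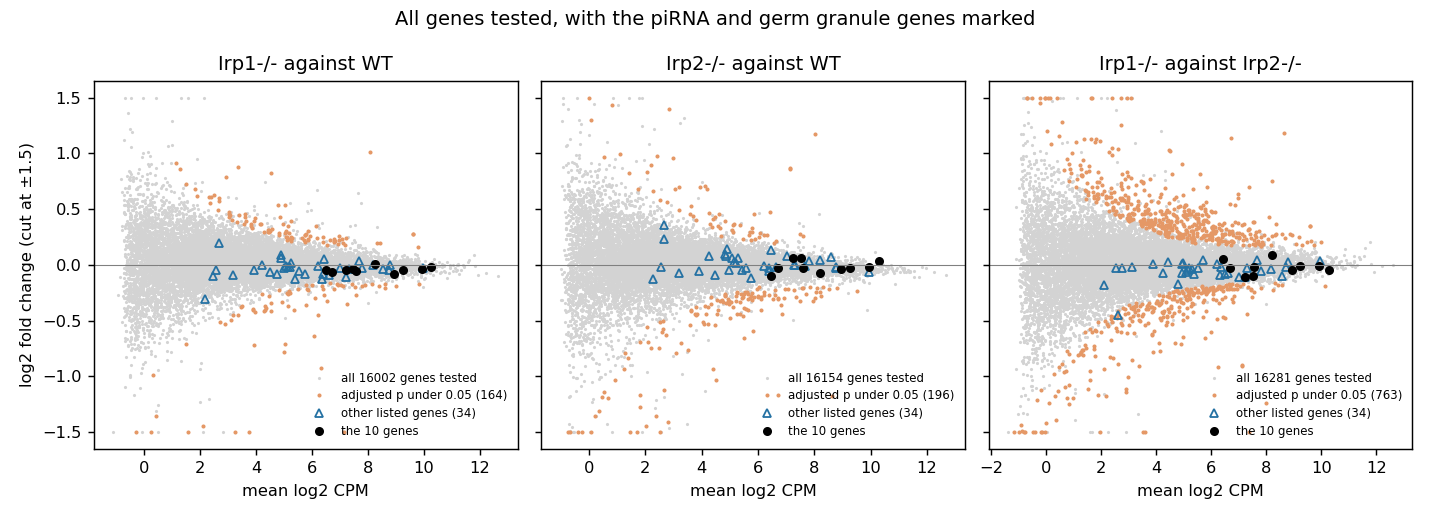
Log2 fold change against mean log2 CPM for all genes tested in each comparison (grey), those with an adjusted p under 0.05 (orange), the 10 genes (black) and the other listed genes (blue triangles), with fold changes cut at ±1.5. The black points lie near 0 at high expression in all 3 panels, and 1 triangle, Morc1 at -0.45 in Irp1-/- against Irp2-/- testes, falls among the orange points.

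Over the 11 samples, the genes whose log2 CPM followed the average of the 10 most closely, out of 16301 candidates outside the lists, were Wdr35 (Pearson r = 0.94, Spearman rho = 0.94), 2010109A12Rik (0.93 and 0.95), Hecw1 (0.91 and 0.89), Nup205 (0.90 and 0.84) and Wbscr28 (0.89 and 0.85). Without Irp1-/- replicates 6 and 7, the samples farthest from the median of that average, the r values were 0.81, 0.83, 0.87, 0.64 and 0.64. These are the highest of many candidates and are given as a description.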

How the data were processed

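Gene counts were deposited by the authors as whole numbers per gene and sample, without normalization. Per the study's methods, stranded libraries of polyadenylated RNA were sequenced as paired reads and processed with the nf-core RNA-seq pipeline on mm10; the counter and its rule for reads with several matches were not given in the sources used here. Genes were filtered with filterByExpr, scaled with TMM and tested with the quasi-likelihood test of edgeR 4.0.16 (R 4.3.3), with only the 2 genotypes compared in each fit, Benjamini-Hochberg adjustment over all tested genes and a threshold of 0.05. This replaced the DESeq2 test named in the methods, which was run as an alternative (DESeq2 1.42.0). Intervals are 95% intervals from the standard error of the fit. The code was tested on simulated data. CPM used the total count, and RPKM the union of GENCODE M21 basic exons. Log2 CPM values for likeness and for deviations were TMM-scaled with a prior count of 2.

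The 10 genes and all lists were chosen with earlier results of these data known. Genes named beside the 10 were Aco1, Ireb2, listed genes with an adjusted p under 0.05, the 3 highest per length in each list, and the 5 genes most like the average of the 10. Other listed or marker genes were named after their values were seen. Nothing in the labels says whether samples of a genotype came from separate animals, so p-values measure the spread between these samples. Counts of any pair of samples of a genotype differed by more than sampling noise (chi-square divided by its degrees of freedom, 1.97 to 6.75 in 15 pairs), so none were copies. The promoter windows of Tdrd7 are not reported here, and the windows used hold none of Piwil2 and Tdrd6.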

Additional observations from a re-analysis of the deposited data

Results flagged for a closer look

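Morc1, a repressor of transposons in the male germline, differed between the knockouts by a test of the difference itself: its log2 fold change in Irp1-/- against Irp2-/- testes was -0.45 (adjusted p = 0.043, edgeR), with 5.15 ± 0.66 CPM (SD, n = 4) against 7.13 ± 0.64 CPM (n = 3) and 5.48 ± 0.26 CPM in WT (n = 4). All 3 Irp2-/- samples were above all 4 Irp1-/- samples, while groups failed to overlap for 15.1% of all genes there. The adjusted p ranged from 0.027 to 0.24 over the alternatives, and Morc1 was picked out of 34 tested genes of the wider pathway, in a comparison where 4.69% of all genes passed. In WT and Irp1-/- testes none of the 10 genes had a sample far from the others of its genotype by Dixon's test, in 20 groups of 4 samples, where chance gives about 1; the Irp2-/- groups of 3 were not tested.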

How the results depend on the processing

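None of the 10 genes passed the threshold in any comparison under any alternative run: RLE scaling, no count filter, at least 10 counts in every sample, DESeq2, all 11 samples in 1 fit, the replicate block, and each sample left out in turn. Over 400 such log2 fold changes the range was -0.14 to 0.11, the smallest adjusted p was 0.17, and 15 changed sign, all of fold changes near 0. With each sample left out in turn, the log2 fold change ran from -0.0077 to 0.031 for Tdrd7 (Irp1-/- against WT). It ran from -0.054 to 0.026 for Tdrd6, -0.061 to 0.0044 for Ddx4 and -0.020 to 0.069 for Mael (Irp2-/- against WT, positive for Tdrd6 and Ddx4 and negative for Mael without Irp2-/- replicate 1). In Irp1-/- against Irp2-/- testes it ran from -0.045 to 0.014 for Tdrd1, -0.058 to 0.021 for Tdrd6, -0.043 to 0.021 for Ddx4 and -0.081 to 0.0086 for Mael. Deviations of samples with the same replicate number had correlations of -0.020 to 0.12. With so few samples per genotype these cannot decide whether the numbers pair samples. In the replicate block only samples with shared numbers inform the fold change, and Irp1-/- samples share only numbers 1 and 2 with each other genotype. The values that changed sign with the replicate block were -0.0077 for Tdrd7 (Irp1-/- against WT) and 0.051 for Tdrd1, 0.0033 for Tdrd6 and 0.019 for Ddx4 (Irp1-/- against Irp2-/-).

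Of the 34 other genes, the number passing in Irp1-/- against Irp2-/- testes fell from 1 to 0 with DESeq2 and with the replicate block, and was 0 to 1 with a sample left out; the gene was Morc1. The cause was not tested. Alternatives chosen after seeing the data were the longest transcript as length and TMM-scaled CPM for overlap, where 2 of the 10 genes failed to overlap in Irp1-/- against WT testes in place of 0, and CPM of the total count for the average of the 10 genes, where 1 WT sample in place of 4 stood above every knockout sample. Under TMM scaling the summed CPM moved to 4374 in WT and 4344 in Irp2-/- testes. Over all genes, the number passing in Irp1-/- against WT testes was 164, and 55 to 216 with a sample left out (55 and 102 without Irp1-/- replicates 1 and 6, 84 and 106 without WT replicates 2 and 4). It was 439 with the replicate block, where only replicates 1 and 2 of each genotype inform the fold change. In Irp2-/- against WT testes it was 196 and 118 to 223 (118 without Irp2-/- replicate 2), and in Irp1-/- against Irp2-/- testes 763 and 414 to 763 (414 without Irp2-/- replicate 2, 471 without Irp1-/- replicate 1).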
